A study of Homo sapiens with 6 samples.

Results

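WNT pathway genes were examined in H1 cells, an established human embryonic stem cell line, with and without deletion of SNAI1. SNAI1 is a DNA-binding repressor of epithelial genes. The set held 54 genes listed by family: WNT ligands and the 2 proteins that prepare them, Frizzled (FZD) and LRP receptors, SFRP and DKK inhibitors, beta-catenin, TCF/LEF factors and targets that feed back on the pathway. Of the 54, 53 were listed once in both deposited tables and WNT5A was listed on 2 rows, out of 37803 symbols found once in both. RNA-seq libraries were made from 2 ug of total RNA at day 2 of hematopoietic differentiation, and all 6 libraries had the same medium, with 40 ng/ml activin A and 50 ng/ml BMP4 per the labels. The methods of the study give these doses the other way round. The groups were WT, with no deletion (n = 2), and cells with SNAI1 deletion in groups named here SNAI1_KO_1 and SNAI1_KO_2 after the leading number in their titles (n = 2 each). The study describes a pair of frameshift knockout lines for the gene, but the labels do not say whether the leading number is a line or whether the libraries came from separate cultures, so the p-values measure only the spread between these libraries.

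In WNT signalling, a lipid-modified ligand joins an FZD receptor and an LRP co-receptor, which spares beta-catenin from the destruction complex and lets it act with TCF/LEF factors on target genes. Some of these targets, such as AXIN2, NOTUM and RNF43, damp the signal again. Other ligands, among them WNT5A and WNT5B, are known mainly for acting through routes that do not need beta-catenin. In the early embryo the pathway drives formation of the primitive streak and mesoderm, the step that day 2 of this culture models.

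Each table held 1 library of every group and was normalized separately, so knockout libraries were set against the WT library of the same table. Values are FPKM (fragments scaled to transcript length and to the mapped total), which can be compared between genes because they are per length. Their sum was between 603399 and 633851 per library, and the absolute depth is unknown. The targeted gene did not check the labels: SNAI1 mRNA was 37.1 and 36.4 FPKM in WT and between 47.8 and 68.6 in the 4 knockout libraries, and all directions below are those of the libraries as labelled. Mesoderm markers were present in every group, although their summed FPKM (6 genes) was 1530 to 1591 in WT and 1044 to 1122 in the knockout libraries. Of the 6, EOMES, MESP1, APLNR and HAND1 were called lower, MIXL1 did not pass and TBXT was called higher (log2 difference 2.72, adjusted p 0.000142 by limma). The sum of 5 pluripotency markers was 628.6 to 737 in WT and 854.8 to 1165 in the knockout libraries, and SOX2 was low in all of them, at 0.281 to 2.18 FPKM. Summed markers of other cell types also differed between the groups. From WT to knockout libraries, the sums were 2825 to 3337 and 1275 to 1930 for 5 endoderm genes, of which CER1 made up most, 81.4 to 96.0 and 50.5 to 74.3 for 5 neural genes, and 245 to 270.1 and 86.0 to 97.9 for 9 amnion and trophoblast genes. Of the endoderm genes, CER1 and FOXA2 were called lower and SOX17 and FOXA1 higher. FOXA1 averaged 0.661 FPKM in WT and reached the mean of 1 FPKM needed for testing only through the knockout libraries. The neural sum was mostly OTX2, at 79.6 and 93.2 FPKM in WT and 50.2 to 73.7 in the knockout libraries. OTX2 was the only neural gene tested and did not pass (adjusted p 0.0929 by limma). The amnion and trophoblast sum in WT was mostly HAND1, which is also a mesoderm marker here. HAND1 and GATA3 were called lower while TFAP2A and GABRP were called higher (log2 differences 1.82 and 1.16). GABRP averaged 0.095 FPKM in WT and also reached the mean needed for testing only through the knockout libraries. The sums were 58.8 to 68.5 and 41.8 to 47.6 for 7 endothelial and blood genes, and 152 to 153 and 197 to 283 for 6 fibroblast genes. Of the latter, THY1 was called higher (log2 difference 1.19), and POSTN and LUM were called lower (-1.09 and -1.01). THY1 was 58.0 and 78.4 FPKM in WT and 129 to 195 in the knockout libraries, where it was the largest part of the sum. COL1A1 and COL1A2 did not pass, so the higher sum does not describe the fibroblast genes as a group. LUM averaged 0.911 and 0.587 FPKM in SNAI1_KO_1 and SNAI1_KO_2 and was tested only through its WT level. The calls of FOXA1, GABRP and LUM do not count as support for a cell type difference. No marker was listed at 0 in all 6 libraries. The part of these cell type differences in the results below was not tested, and in bulk RNA fewer cells of a type and less RNA per cell cannot be told apart.

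Promoter sequence is shown for 4 genes, because the TCF/LEF factors of the pathway and SNAI1 itself each bind a short DNA word: SP5 and DKK1 hold the TCF/LEF core CTTTGA, and FZD5 and WNT5A hold the SNAI1 E-box CAGGTG. The 250 bases before the RefSeq start are given 5′ to 3′ on the gene's strand (GRCh38.p14), with either word in capitals, read on both strands (TCAAAG and CACCTG are the other strand). The regions are chr2:170715087-170715336 on the plus strand for SP5, chr10:52314031-52314280 on the plus strand for DKK1, chr2:207769907-207770156 on the minus strand for FZD5 and chr3:55487307-55487556 on the minus strand for WNT5A.
SP5: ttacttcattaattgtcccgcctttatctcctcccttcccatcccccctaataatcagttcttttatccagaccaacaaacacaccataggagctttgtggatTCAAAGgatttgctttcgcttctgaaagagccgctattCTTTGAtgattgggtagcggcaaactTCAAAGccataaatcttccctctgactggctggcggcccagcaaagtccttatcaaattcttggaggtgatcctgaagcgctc
DKK1: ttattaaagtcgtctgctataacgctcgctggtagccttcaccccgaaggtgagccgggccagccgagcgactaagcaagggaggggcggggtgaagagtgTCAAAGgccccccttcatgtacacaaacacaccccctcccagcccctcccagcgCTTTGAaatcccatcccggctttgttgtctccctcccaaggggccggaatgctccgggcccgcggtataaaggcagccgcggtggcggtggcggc
FZD5: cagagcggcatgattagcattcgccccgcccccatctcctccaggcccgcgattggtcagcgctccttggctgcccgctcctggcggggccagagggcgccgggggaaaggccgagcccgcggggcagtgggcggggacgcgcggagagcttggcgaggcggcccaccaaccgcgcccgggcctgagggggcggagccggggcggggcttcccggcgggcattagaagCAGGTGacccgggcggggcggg
WNT5A: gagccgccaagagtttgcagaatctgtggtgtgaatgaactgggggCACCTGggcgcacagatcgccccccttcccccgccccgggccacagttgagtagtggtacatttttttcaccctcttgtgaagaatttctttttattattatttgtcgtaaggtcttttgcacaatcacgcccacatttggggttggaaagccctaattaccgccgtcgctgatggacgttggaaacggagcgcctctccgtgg

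SP5 had 3 copies of the TCF/LEF core, starting 147, 109 and 83 bases before the start, and DKK1 had 2, at 149 and 95 bases. In WNT5A the E-box began 204 bases before the start and in FZD5 at 22 bases. A promoter window of 300 bases (250 before to 50 after the start) was found for 36 of the 54 members. Of these 36, 2 held CTTTGA (5.56%), against 12.9% of all 35116 windows, and 7 held CAGGTG (19.4%), against 20.6% of all windows. Of the targets that feed back on the pathway only SP5 and RNF43 had a window, so these shares leave out most of that class. DKK4 and FZD7 had no window either. A match is a description of these letters and not of binding.

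To ask which members changed with SNAI1 deletion, genes whose FPKM averaged 1 or more over the 6 libraries were compared on log2(FPKM + 1), a scale that understates the change of low genes. Of the 54 members, 37 passed this filter. With both knockout groups set against WT together, 22 of the 37 passed the threshold (adjusted p under 0.05 by limma over 13909 genes), 13 higher and 9 lower, which is 59.5% of the members tested, where 31.3% of all genes tested were called (15.8% higher and 15.4% lower). Of the 13, WNT2B and WNT9A passed the filter only through the knockout libraries. The members were chosen with earlier results of these data known, so these shares are a description and not a test. The median log2 difference was 0.06 over the members and -0.05 over all genes, and members were called in both directions. All 4 within-table differences were positive in 15 of the 37 members, where this held for 26.2% of all genes tested, and negative in 12, where it held for 35.1%. In SNAI1_KO_1 alone 18 members were called (11 higher and 7 lower, where 23.9% of all genes were called), and in SNAI1_KO_2 alone 20 (11 higher and 9 lower, where 25.5% were called). Both contrasts share the WT libraries. They had 16 of these members in common, with NKD1 and RNF43 called in SNAI1_KO_1 but not in SNAI1_KO_2, and FRZB, LRP5, SFRP1 and TCF7L1 called in SNAI1_KO_2 but not in SNAI1_KO_1. None of the 37 members passed between the knockout groups (0 called by limma, 2 at an unadjusted p under 0.05, where all genes gave 0 and 521). The calls rest on the pairing of libraries by table: without the replicate block 3 members passed (DKK4, FZD6 and FZD7), 2 in SNAI1_KO_1 and 2 in SNAI1_KO_2, while 7.66%, 4.14% and 5.02% of all genes were called. The SNAI1_KO_1 count fell to 10 without either WT library, where 10.2% and 9.04% of all genes were called, and to 7 and 9 without its own library of the first and second table, where 6.92% and 8.27% were called. The SNAI1_KO_2 count fell to 11 without the WT library of the second table, where 10.7% of all genes were called, and to 7 without either of its own libraries, where 9.26% and 8.16% were called.

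**Figure D1:**
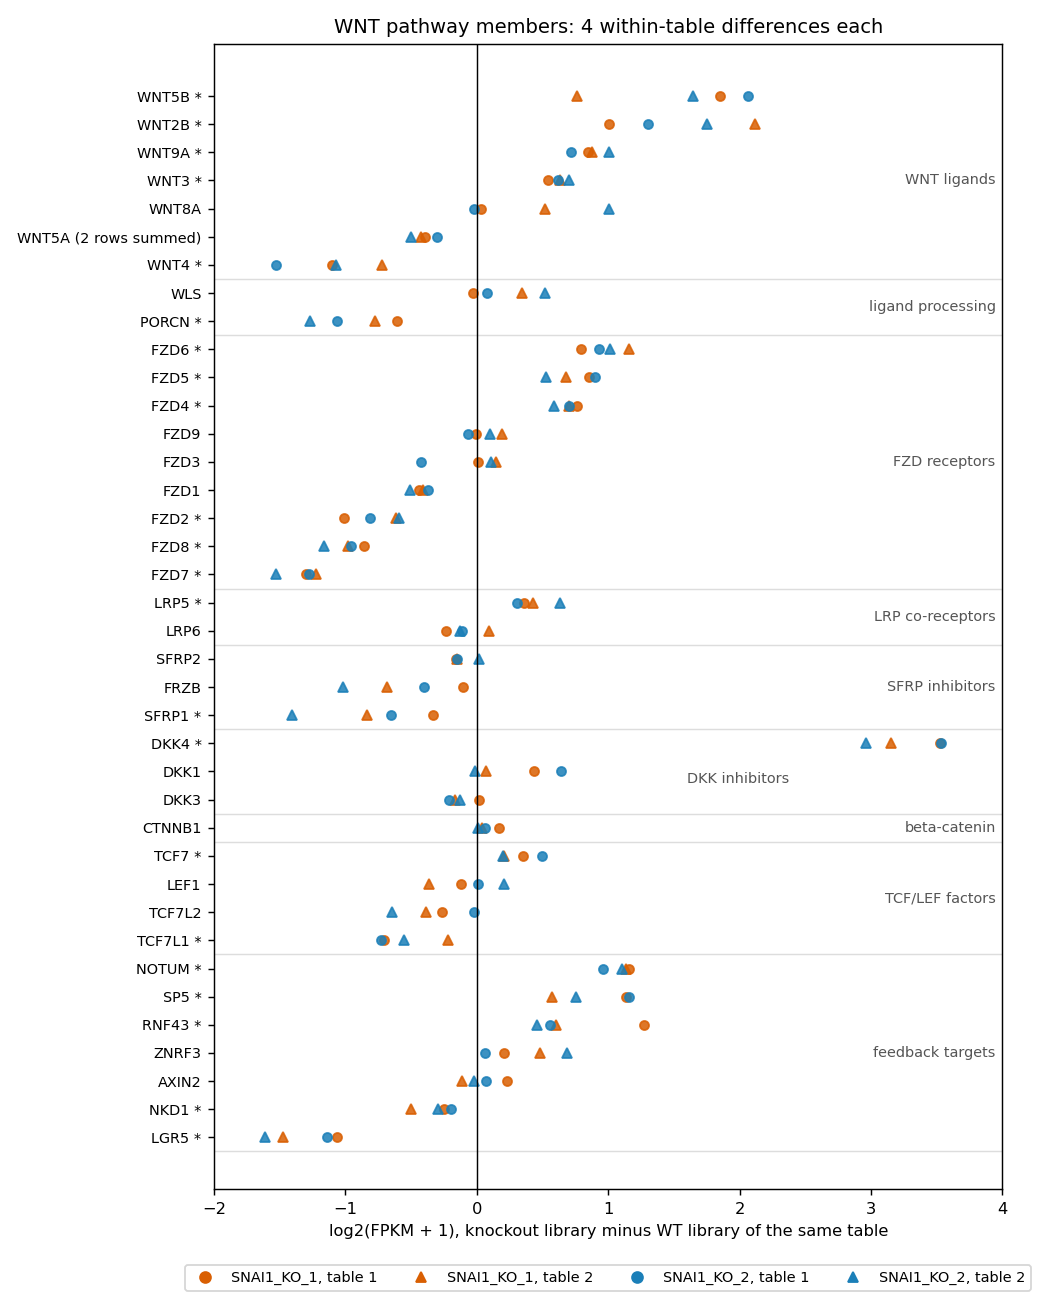
Difference in log2(FPKM + 1) between each knockout library and the WT library of its table (x axis) for the 37 members tested and for WNT5A, grouped by class; circles are the first table and triangles the second, orange SNAI1_KO_1 and blue SNAI1_KO_2. Stars mark the 22 members called over both knockout groups; DKK4 stands apart at about 3 and the FZD receptors fall on both sides of 0.

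Among the 19 ligands, 7 were above the filter, counting WNT5A. WNT5A, listed on 2 rows that were summed, was the most abundant in both WT libraries, at 75.5 FPKM (WT), 57.3 (SNAI1_KO_1) and 60.9 (SNAI1_KO_2) in the first table, with 80.2, 59.6 and 56.4 in the second. Every knockout library was below both WT libraries, with levels at 0.703 to 0.806 of WT. Tested with rows summed, an alternative chosen after seeing the data, WNT5A fell by limma (log2 difference -0.41 ± 0.061 (SE), adjusted p 0.00764). The transcript named as its antisense partner, WNT5A-AS1, was 21.3 FPKM (WT), 19.9 (SNAI1_KO_1) and 13.5 (SNAI1_KO_2) in the first table, with 47.3, 24.4 and 23.9 in the second, and was lower too (log2 difference -0.65, adjusted p 0.0375). In GENCODE release 29 no exon of WNT5A overlapped an exon of another gene.

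WNT5B, the close relative of WNT5A, moved the opposite way. It was 9.78 FPKM (WT), 38.0 (SNAI1_KO_1) and 44.1 (SNAI1_KO_2) in the first table, with 21.9, 37.7 and 70.4 in the second. The groups did not overlap, and the log2 difference was 1.58 ± 0.21 (adjusted p 0.00537 by limma). The WT libraries themselves differed from each other by more than those of WNT5A, and the rise in single comparisons lay between 1.72 and 4.51 times WT. As a share of all WNT ligand FPKM, WNT5A made up 70.2% and 66.8% in WT and 36.3% to 48.7% in the knockout libraries. The sum of all 19 ligands was 107.5 and 120.1 FPKM in WT and 118 to 155 in the knockout libraries, and neither the sum nor the shares were tested.

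WNT3, a ligand of the beta-catenin route needed for the primitive streak, was 7.01 FPKM (WT), 10.7 (SNAI1_KO_1) and 11.3 (SNAI1_KO_2) in the first table, with 7.88, 12.8 and 13.4 in the second. It rose in all 4 comparisons by a similar amount, 1.52 to 1.71 times WT (log2 difference 0.62 ± 0.078, adjusted p 0.00410). WNT8A, another streak ligand, was 2.99, 3.07 and 2.92 FPKM in the first table, with 1.81, 3.02 and 4.65 in the second. It was level in the first table and higher in the knockout libraries of the second, and did not pass (log2 difference 0.38, 95% interval -0.18 to 0.94, adjusted p 0.246). WNT3A stayed below the filter, at 0.253 and 0.380 FPKM in WT and 0.377 to 0.886 in the knockout libraries.

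WNT4 fell, and WNT2B and WNT9A rose from under 1 FPKM in WT. WNT4, known from kidney and gonad development, was 9.91 FPKM (WT), 4.09 (SNAI1_KO_1) and 2.78 (SNAI1_KO_2) in the first table, with 5.17, 2.74 and 1.93 in the second, a log2 difference of -1.11 ± 0.14 (adjusted p 0.00392). WNT2B was 0.296, 1.61 and 2.19 FPKM in the first table, with 0.434, 5.24 and 3.83 in the second (log2 difference 1.55 ± 0.24, adjusted p 0.00858). WNT9A was 0.443, 1.59 and 1.37 FPKM in the first table, with 0.638, 2.01 and 2.30 in the second (log2 difference 0.86 ± 0.15, adjusted p 0.0113). Both WT libraries were below every knockout library for these 2 genes. WNT2B and WNT9A were under 1 FPKM in WT and passed the filter only through the knockout libraries, so their calls do not count as support for a rise of the class.

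The other 12 ligands were listed below the filter. WNT11, which is active in mesoderm and heart precursors, was 0.617 and 0.270 FPKM in WT and 0 to 0.0786 in the knockout libraries. WNT2 was 0.144 and 0.449 FPKM in WT and at most 0.0227 in the knockout libraries. Both had all knockout values under both WT values, at levels too low to test here, and no ligand of this group passed when the filter was lifted (adjusted p 0.0785 for WNT11 and 0.125 for WNT2). WNT1, WNT7A, WNT7B, WNT8B, WNT10A and WNT16 never exceeded 0.15 FPKM, and WNT6, WNT9B and WNT10B never reached 1.

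**Figure D2:**
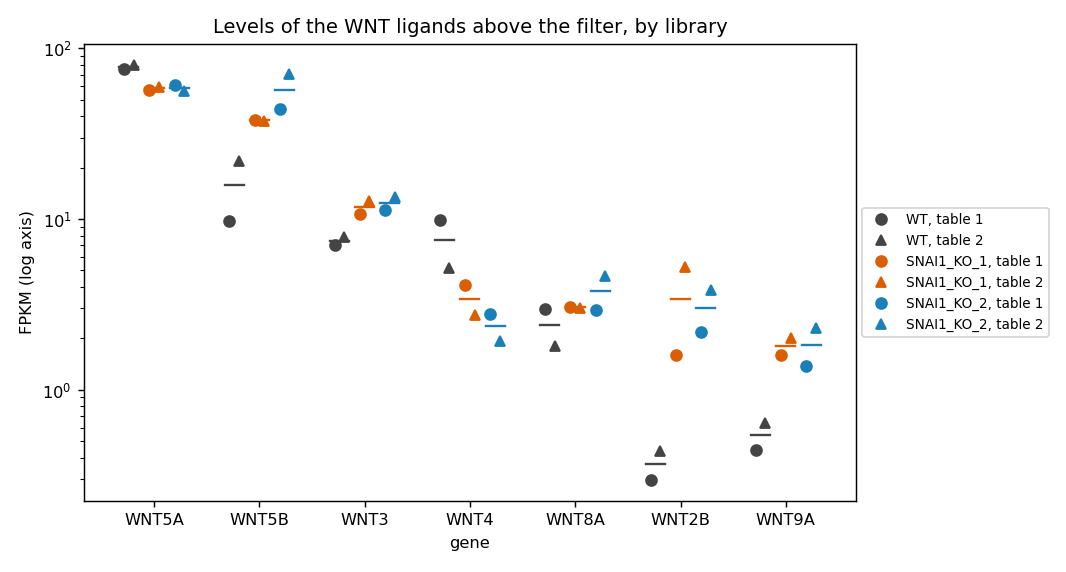
FPKM of the 7 WNT ligands above the filter (log y axis) in each library; circles are the first table and triangles the second, grey is WT, orange SNAI1_KO_1 and blue SNAI1_KO_2, and short lines are group means (n = 2). WNT5A is lower and WNT5B, WNT3, WNT2B and WNT9A are higher in the knockout libraries, and WNT8A overlaps between groups.

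Of the proteins that prepare ligands for release, PORCN fell and WLS did not pass. PORCN, the enzyme that attaches the lipid to WNT proteins, was 13.3 FPKM (WT), 8.38 (SNAI1_KO_1) and 5.86 (SNAI1_KO_2) in the first table, with 19.3, 10.9 and 7.41 in the second. The log2 difference was -0.93 ± 0.086 (adjusted p 0.00164 by limma). SNAI1_KO_2 was lower than SNAI1_KO_1 in each table, with a log2 difference between the knockout groups of -0.47 (95% interval -0.73 to -0.22) and an unadjusted p of 0.00434 in the fit across all genes, which did not pass after adjustment (adjusted p 0.9996). WLS, the carrier that brings WNT proteins to the cell surface, was abundant at 141 and 137 FPKM in WT and 138 to 198 in the knockout libraries (adjusted p 0.139).

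The FZD receptors split. The most abundant in WT, FZD7, FZD8 and FZD2, fell, and FZD4, FZD5 and FZD6 rose from lower levels. FZD7, the main FZD of human embryonic stem cells, was 135 FPKM (WT), 54.1 (SNAI1_KO_1) and 54.8 (SNAI1_KO_2) in the first table, with 162, 69.0 and 55.7 in the second. The groups were far apart, with knockout levels at 0.343 to 0.425 of WT and a log2 difference of -1.33 ± 0.078 (adjusted p 0.000444). FZD8 was 36.2, 19.5 and 18.1 FPKM in the first table, with 91.1, 45.6 and 40.0 in the second. Its level depended more on the table than on the group, but within each table the knockout libraries had 0.439 to 0.539 of the WT level (log2 difference -0.99 ± 0.066, adjusted p 0.000652). FZD2 was 19.0, 8.93 and 10.4 FPKM in the first table, with 28.99, 18.6 and 18.9 in the second (log2 difference -0.76 ± 0.099, adjusted p 0.00482).

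The rising receptors had close to equal changes in both knockout groups. FZD4, also a receptor for Norrin in blood vessels, was 10.8, 19.1 and 18.2 FPKM in WT, SNAI1_KO_1 and SNAI1_KO_2 of the first table, with 8.79, 14.9 and 13.7 in the second (log2 difference 0.69 ± 0.073, adjusted p 0.00249 by limma). FZD6, known from planar polarity of skin and hair, was 4.58, 8.68 and 9.65 FPKM in the first table, with 3.22, 8.43 and 7.51 in the second (log2 difference 0.98 ± 0.11, adjusted p 0.00316). FZD5, whose promoter E-box is shown above, was 2.68, 5.66 and 5.86 FPKM in the first table, with 4.86, 8.38 and 7.43 in the second (log2 difference 0.74 ± 0.11, adjusted p 0.00816). For FZD4 and FZD6 all 4 knockout libraries were above both WT libraries, and this held for FZD5 as well.

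FZD1, FZD3 and FZD9 did not pass. FZD1 was 1.86 and 2.22 FPKM in WT and 1.11 to 1.42 in the knockout libraries, lower in all 4 comparisons, with an adjusted p of 0.0649. FZD3 and FZD9 had intervals of the log2 difference of -0.40 to 0.32 and -0.27 to 0.38. FZD10 was below the filter, at 0.209 to 1.17 FPKM. Summed over all 10 genes, FZD mRNA was 216 and 309 FPKM in WT and 123 to 175 in the knockout libraries, and knockout sums were 0.495 to 0.572 of WT within each table. FZD7 made up 62.4% and 52.6% of this sum in WT and 36.4% to 44.5% in the knockout libraries. The shares of FZD4, FZD5 and FZD6 were higher in the knockout library of each comparison, with FZD4 at 5.002% and 2.85% in WT and 8.52% to 15.4% in the knockout libraries. The sums and shares were not tested.

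**Figure D3:**
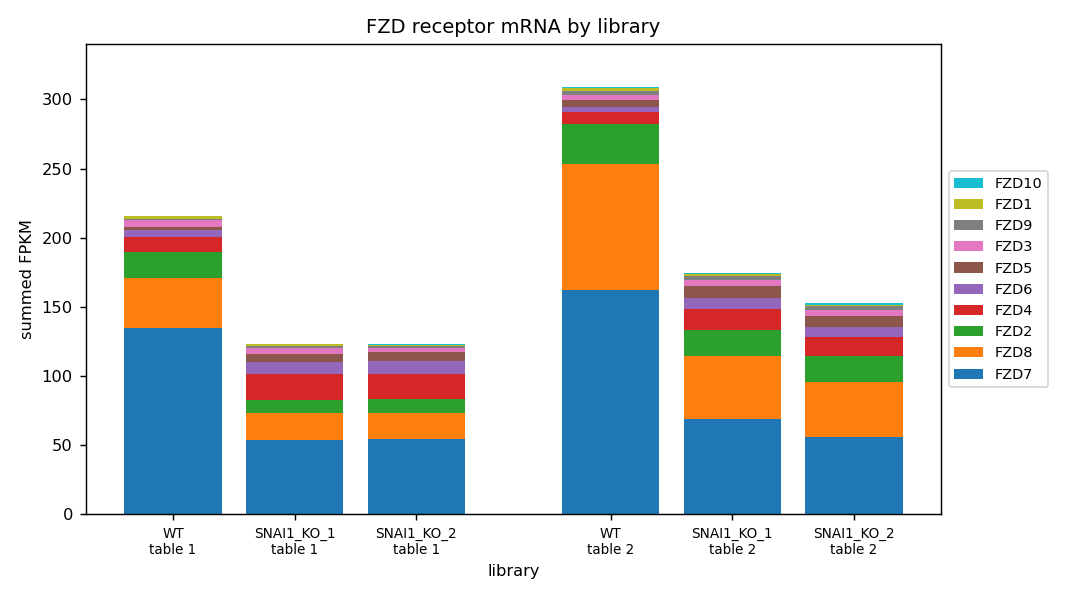
FPKM of the 10 FZD receptors stacked for each library (y axis, from 0), with the libraries of the first table on the left and those of the second on the right. The WT sums of 216 and 309 exceed the knockout sums of 123 to 175, mostly through FZD7 (blue) and FZD8 (orange).

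The co-receptors LRP5 and LRP6 were at similar levels. LRP5 was 8.07, 10.6 and 10.2 FPKM in WT, SNAI1_KO_1 and SNAI1_KO_2 of the first table, with 12.6, 17.3 and 20.1 in the second (log2 difference 0.43 ± 0.097, adjusted p 0.0252 by limma). LRP6 was 13.7, 11.5 and 12.6 FPKM in the first table, with 11.6, 12.5 and 10.6 in the second, with overlapping groups and an interval of -0.35 to 0.16.

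Among the inhibitors, DKK4 had the largest change of all members. DKK proteins bind LRP5 and LRP6 and block the beta-catenin route, and DKK4 is itself a known target of that route. DKK4 was 0.935 FPKM (WT), 21.3 (SNAI1_KO_1) and 21.4 (SNAI1_KO_2) in the first table, with 1.53, 21.5 and 18.7 in the second. Knockout levels were 12.2 to 22.9 times WT, and the log2 difference was 3.29 ± 0.13 (adjusted p 0.000196 by limma). DKK1, the related inhibitor made in the early embryo, was far more abundant in WT, at 44.4 and 60.1 FPKM. It was 60.4 and 69.8 in the knockout libraries of the first table and 63.1 and 59.5 in those of the second, overlapping with WT (log2 difference 0.28, 95% interval -0.05 to 0.62, adjusted p 0.163). DKK3, which is thought to act little on LRP, was 35.7 and 45.8 FPKM in WT and 30.8 to 41.8 in the knockout libraries (adjusted p 0.259), and DKK2 was at most 0.0731 FPKM.

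The secreted FZD-related proteins bind WNT ligands outside the cell. SFRP2 was the most abundant, at 40.2, 35.9 and 36.1 FPKM in the first table, with 46.7, 41.9 and 47.3 in the second, and its groups overlapped (interval of the log2 difference -0.27 to 0.05). SFRP1 was 8.48, 6.51 and 5.02 FPKM in the first table, with 12.6, 6.63 and 4.14 in the second, lower in all 4 knockout libraries (log2 difference -0.81 ± 0.17, adjusted p 0.0192 by limma). FRZB was 5.58, 5.12 and 3.99 FPKM in the first table, with 7.86, 4.53 and 3.38 in the second. It was also lower in each comparison but missed the threshold over both groups (log2 difference -0.55, adjusted p 0.0523). SFRP4 and SFRP5 were at most 0.0178 and 0.631 FPKM.

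Beta-catenin mRNA (CTNNB1) was 135, 152 and 141 FPKM in the first table, with 107, 111 and 108 in the second, with a log2 difference of 0.07 (95% interval -0.05 to 0.19). The protein, whose stability the pathway sets, was not measured. Of the factors it works with, TCF7 was 16.1, 20.9 and 23.1 FPKM in the first table, with 19.7, 23.0 and 22.8 in the second (log2 difference 0.31 ± 0.083, adjusted p 0.0394 by limma). TCF7 passed only over both groups together, and in neither SNAI1_KO_1 nor SNAI1_KO_2 alone (adjusted p 0.0911 and 0.0513 by limma). TCF7L1, which mostly represses targets in stem cells, was 8.51, 4.83 and 4.74 FPKM in the first table, with 14.4, 12.2 and 9.49 in the second (log2 difference -0.55 ± 0.12, adjusted p 0.0243). These changes were small, and the groups of TCF7L1 overlapped across tables.

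LEF1 and TCF7L2 did not pass. LEF1 was 7.99, 7.25 and 8.04 FPKM in the first table, with 6.89, 5.14 and 8.09 in the second (log2 difference -0.07, 95% interval -0.36 to 0.23). TCF7L2 was 10.4, 8.45 and 10.2 FPKM in the first table, with 19.0, 14.3 and 11.8 in the second (adjusted p 0.143).

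The 7 feedback targets did not move as a block: NOTUM, SP5 and RNF43 rose, LGR5 and NKD1 fell, and AXIN2 and ZNRF3 did not pass. NOTUM, a secreted enzyme that removes the lipid from WNT ligands, was 12.8 FPKM (WT), 29.7 (SNAI1_KO_1) and 25.7 (SNAI1_KO_2) in the first table, with 17.6, 39.8 and 39.0 in the second. All knockout libraries were above both WT libraries, at 2.02 to 2.33 times the WT of their table (log2 difference 1.09 ± 0.068, adjusted p 0.000546 by limma). SP5, a transcription factor with the TCF/LEF cores shown above, was 41.8, 93.1 and 94.2 FPKM in the first table, with 129, 192 and 219 in the second. Its WT level in the second table exceeded the knockout levels of the first, but within tables it rose to 1.49 to 2.26 times WT (log2 difference 0.91 ± 0.12, adjusted p 0.00462).

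RNF43 and ZNRF3 are related membrane ubiquitin ligases that remove FZD receptors from the cell surface. RNF43 was 0.570, 2.79 and 1.303 FPKM in the first table, with 1.79, 3.24 and 2.82 in the second (log2 difference 0.72 ± 0.18, adjusted p 0.0356 by limma). ZNRF3 was 5.59, 6.60 and 5.89 FPKM in the first table, with 6.16, 8.97 and 10.5 in the second, higher in all 4 comparisons but not past the threshold (log2 difference 0.36, adjusted p 0.118). AXIN2, a scaffold of the destruction complex and a common readout of the pathway, was 19.1, 22.6 and 20.1 FPKM in the first table, with 22.9, 21.0 and 22.4 in the second. Its groups overlapped and its interval was -0.19 to 0.27.

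LGR5, a receptor for R-spondins, which protect FZD receptors from RNF43 and ZNRF3, was 43.3 FPKM (WT), 20.3 (SNAI1_KO_1) and 19.1 (SNAI1_KO_2) in the first table, with 34.4, 11.8 and 10.5 in the second. Every knockout library was below both WT libraries (log2 difference -1.32 ± 0.11, adjusted p 0.00132 by limma). NKD1, which binds Dishevelled, was 43.9, 36.7 and 38.1 FPKM in the first table, with 62.3, 43.8 and 50.7 in the second (log2 difference -0.31 ± 0.069, adjusted p 0.0240). Its fall was small, and the WT library of the first table lay within the range of the knockout libraries.

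**Figure D4:**
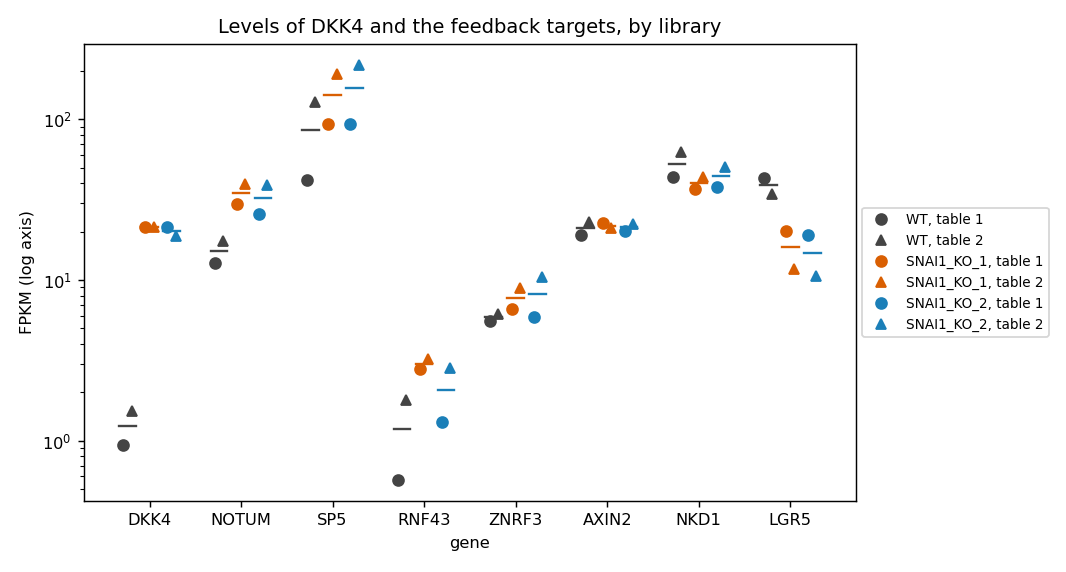
FPKM of DKK4 and the 7 feedback targets (log y axis) in each library; circles are the first table and triangles the second, grey is WT, orange SNAI1_KO_1 and blue SNAI1_KO_2, and short lines are group means (n = 2). DKK4 rose most, from 0.935 and 1.53 FPKM in WT to 18.7 to 21.5, NOTUM and SP5 rose within each table, LGR5 fell, and AXIN2 overlapped between groups.

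Of the 22 called members, 12 were called again when each library in turn was left out: DKK4, FZD2, FZD4, FZD6, FZD7, FZD8, LGR5, NOTUM, PORCN, SP5, WNT4 and WNT5B. The other 10 were lost without at least 1 library. The same count was not made over all called genes, so whether 12 of 22 is many or few is not known. Without the WT library of the second table, the count fell to 13 (12.4% of all genes were called), and WNT2B, WNT3, WNT9A, LRP5, SFRP1, TCF7, TCF7L1, NKD1 and RNF43 did not pass (adjusted p 0.0503 to 0.183 by limma). When the first table lost its WT library (13.1% of all genes were called), WNT9A, FZD5, LRP5, TCF7, TCF7L1, NKD1 and RNF43 did not pass (adjusted p 0.0609 to 0.237 by limma). The calls of LRP5, SFRP1, TCF7, TCF7L1, NKD1 and RNF43 also depended on knockout libraries, with adjusted p between 0.0543 and 0.115 where they were lost. In GENCODE release 29, exons of 9 of the 22 called members overlap another gene, among them FZD4 (PRSS23), FZD6 (BAALC-AS1), TCF7 (SKP1), WNT2B (ST7L) and RNF43 (SUPT4H1), so their values are uncertain where reads could be split.

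Other genes of the pathway came from a list of 71. Of the 60 tested, 33 were called over both knockout groups, 15 higher and 18 lower (55% of those tested, against 31.3% of all genes). Of the 15, NKD2, PRICKLE2 and MSGN1 passed the filter only through the knockout libraries. The list too was chosen with earlier results of these data known, so these shares are a description and not a test. The count was 9 without the replicate block (7.66% of all genes), 11 and 12 without the WT library of the first and second table (13.1% and 12.4%), 19 without either SNAI1_KO_1 library (19.3% and 20.4%) and 21 without the SNAI1_KO_2 library of the second table (19.3%). In the R-spondin and LGR group 2 of 3 genes tested were called, where 31.3% of all genes were. LGR4, a relative of LGR5, was 42.0 and 30.0 FPKM in WT and 8.87 to 14.2 in the knockout libraries (log2 difference -1.55 ± 0.070, adjusted p 0.000264 by limma), and RSPO3, an R-spondin ligand, rose (log2 difference 0.88, adjusted p 0.0123). Of the 4 receptors outside the FZD family that were tested, 2 were called lower, where 15.4% of all genes were. These were ROR1 and ROR2, which bind WNT5A, with log2 differences of -0.86 and -0.89 (adjusted p 0.00502 and 0.00358 by limma). ROR2 was 71.5 and 71.1 FPKM in WT and 32.5 to 41.7 in the knockout libraries. LGR4, LGR5, ROR1, ROR2 and FZD7 were thus lower in the knockout libraries, while FZD4, FZD5 and FZD6 were higher. LRP6 and RYK, another of the receptors outside the FZD family, did not pass. The receptors that fell come from separate classes, and a common change of receptors was not tested.

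Inside the cell, 2 of 10 genes of the destruction complex that were tested were called, a share of 20% where 31.3% of all genes were called, and both were lower: APC by a log2 difference of -0.46 (adjusted p 0.0184 by limma) and CSNK1E by -0.26 (adjusted p 0.0155). GSK3B, the kinase that marks beta-catenin for destruction, did not pass (log2 difference -0.06, adjusted p 0.613). Of 7 genes of Dishevelled and its regulators, 3 were called lower, where 15.4% of all genes were. The largest change was in DACT3 (log2 difference -1.48, adjusted p 0.00120 by limma). The 1 called higher, NKD2, averaged 0.787 FPKM in WT and passed the filter only through the knockout libraries. Of 8 other extracellular modulators tested, 3 were higher and 2 lower, where 15.8% of all genes were called higher and 15.4% lower. The lower ones included CER1, an inhibitor of NODAL and BMP. It was 2550 and 3262 FPKM in WT and 976.9 to 1797 in the knockout libraries (log2 difference -1.002, adjusted p 0.00314 by limma).

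Among 7 streak genes that are known to respond to WNT, 5 were called higher, where 15.8% of all genes were, and MIXL1 and TBX6 did not pass. MSGN1, 1 of the 5, averaged 0.536 FPKM in WT and passed the filter only through the knockout libraries, so the count is no support for a rise of the group. TBXT (listed as T), the brachyury factor of the streak, was 17.8 FPKM (WT), 129.6 (SNAI1_KO_1) and 143 (SNAI1_KO_2) in the first table, with 38.7, 218 and 251 in the second (log2 difference 2.72 ± 0.080, adjusted p 0.000142 by limma). CDX1, a caudal factor, was 1.07, 22.0 and 21.0 FPKM in the first table, with 2.15, 19.7 and 24.9 in the second (log2 difference 3.16 ± 0.16, adjusted p 0.000324).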

How the data were processed

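The 6 RNA-seq libraries of day 2 H1 cultures comprised 2 each of WT, SNAI1_KO_1 and SNAI1_KO_2, grouped by title. The authors deposited FPKM values per gene symbol in 2 tables of 38100 and 58324 gene rows, 1 library per group in each. A heading row inside the second table names the unit, and the first was taken to hold the same from its values. The submitters' processing notes name BWA, Bowtie, RSEM and the build hg19, without roles; the annotation is not given in the sources used here. Symbols listed more than once (94 and 340) were left out. Per-sample columns outside the 6 used numbered 0.

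A linear model with a mean per group and a term for the table (the replicate block) was fitted to log2(FPKM + 1) of 13909 genes averaging 1 FPKM or more, with limma 3.58.1 (R 4.3.3; lmFit, contrasts.fit, eBayes with trend; degrees of freedom 2 residual, 3.34 prior). Two-sided p-values were adjusted over all genes (Benjamini-Hochberg), and those under 0.05 were called. The pairing comes from the shared tables: differences between tables correlated across genes with r = 0.616 to 0.676 between groups. The fit was tested on simulated data for both knockout groups against WT. It called 26% of genes changed by a log2 difference of 0.5 and 76% of those changed by 1. The simulation changed 200 of 13909 genes, where 4348 were called in the data. The adjustment is stricter when fewer genes change, so these shares need not hold for the data. A member that did not pass may still have changed. FPKM carry no read totals, so the depth, and any counting error, cannot be given.

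Every member with a call or a mean FPKM of at least 10 was named with its values, and the others by range; pathway genes were at most the 3 per class with the smallest adjusted p, plus fixed names: TBXT, RSPO3, LGR4, ROR2, GSK3B and APC. WNT5A-AS1, NKD2, MSGN1, PRICKLE2 and the overlapping genes were named after their values were seen. The members and lists were chosen with earlier results of these data known. Promoter windows are RefSeq's (GRCh38.p14). Results were recomputed with the block dropped, with pseudocounts of 0.1 or 10, without a filter or with one at 5 FPKM, after median-ratio scaling or quantile normalization, without the trend, with a minimum log2 difference of 1, and leaving out each library. Summing the rows of repeated symbols was added after seeing the data.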

Additional observations from a re-analysis of the deposited data

Results flagged for a closer look

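LEF1 did not pass in either knockout group (adjusted p 0.25 and 0.60 by limma), but its values lay on opposite sides of WT in them. Its log2 difference from WT was -0.12 and -0.36 in SNAI1_KO_1 and 0.0076 and 0.21 in SNAI1_KO_2 (first and second table). The difference of SNAI1_KO_2 less that of SNAI1_KO_1 was 0.35 (95% interval 0.01 to 0.69), with an unadjusted p of 0.0469 in limma's fit across all genes and an adjusted p of 0.9996.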

How the results depend on the processing

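Without the replicate block, 3 members were called over both groups, 2 in SNAI1_KO_1 and 2 in SNAI1_KO_2, and 9 genes of the pathway list, where 22, 18, 20 and 33 were reported. The 19 members lost had adjusted p of 0.0540 to 0.608 by limma. Over all genes 7.66% were then called over both groups. Without the filter, 11, 6, 8 and 13 were called in the same order (7.07% of all genes over both groups, 3.33% in SNAI1_KO_1 and 4.02% in SNAI1_KO_2). At a minimum log2 difference of 1, a limit that itself removes calls, 7, 6, 10 and 9 were called (7.18%, 6.83% and 7.58% of all genes). Leaving out each library, the ranges were 13 to 19, 7 to 15, 7 to 18 and 11 to 22, and 0 to 0 between the knockout groups; 12.4% to 20.4% of all genes were then called over both groups, and fewer samples entered these fits. The cause of the other changes was not tested. The counts stayed within 1.5 times with either pseudocount, the filter at 5 FPKM, median-ratio scaling, quantile normalization, no trend and summed rows. Of 584 alternatives of 37 single members, 486 left direction and call as they were, 83 lost the call, 7 gained one and 8 reversed the direction. The reversed ones belong to members that had not passed: FZD3 (-0.21 to 0.13 over the libraries left out), FZD9 (-0.037 to 0.15, and -0.011 under quantile normalization), LEF1 (-0.15 to 0.016) and AXIN2 (-0.069 to 0.15). Depth is unknown, so the precision of values under 1 FPKM cannot be given.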

Other observations

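Nuclear cofactors of the pathway and planar polarity genes, not described above, were also measured. The cofactors mix partners of beta-catenin with corepressors and other antagonists. All 13 cofactors were tested, and 7 were called lower and 1 higher over both knockout groups, where 15.4% of all genes were called lower and 15.8% higher. Those called lower include both kinds, so the count does not describe the partners alone. PYGO1, a reader that joins the beta-catenin complex, was 4.91 and 3.55 FPKM in WT and 0.726 to 1.95 in the knockout libraries (log2 difference -1.20, adjusted p 0.00313 by limma). The corepressors TLE3 and TLE2 went opposite ways, with log2 differences of -0.72 (adjusted p 0.00220) and 1.02 (adjusted p 0.00260). TLE2 differed between tables more than between groups, at 4.83, 12.1 and 12.5 FPKM in WT, SNAI1_KO_1 and SNAI1_KO_2 of the first table, with 42.3, 83.4 and 70.7 in the second.

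Of 8 planar polarity genes tested, 4 were called higher and 1 lower, where 15.8% of all genes were called higher and 15.4% lower. PRICKLE2, 1 of the 4, averaged 0.542 FPKM in WT and passed the filter only through the knockout libraries, so the count is no support for a rise of the group. CELSR1, a cadherin of this system, was 5.80, 8.58 and 12.6 FPKM in the first table, with 9.55, 17.5 and 18.5 in the second (log2 difference 0.80, adjusted p 0.00587 by limma). VANGL1 was higher and VANGL2 lower, by log2 differences of 0.43 and -0.28 (adjusted p 0.00920 and 0.0161).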
